A study of Mus musculus with 6 samples.

Results

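The mitochondrial ribosomal protein (MRP) genes are the nuclear genes whose symbols begin with Mrpl or Mrps and a number, without the pseudogenes marked -ps. 76 of the 26216 gene symbols in the expression files met this rule. No member was listed more than once, and all 76 lay in the upper 50% of symbols by mean signal, which were the 13108 genes tested. 49 of the encoded proteins belong to the large subunit and 26 to the small subunit. The remaining one, Mrps36, is named for the small subunit but has been reassigned to the 2-oxoglutarate dehydrogenase complex.

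Mitochondria keep a ribosome of their own, which translates the few mRNAs of the mitochondrial genome, all of them for hydrophobic subunits of the respiratory chain and ATP synthase. Its proteins are encoded in the nucleus, made in the cytosol and imported, and many of them have no counterpart in bacteria. Hematopoietic stem cells at rest are known for low respiration and a large dependence on glycolysis, while cells that enter cycle and differentiate respire more.

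RNA-seq was done on LT/ST-HSCs, long- and short-term hematopoietic stem cells sorted by FACS as lineage-, Annexin-V-, sca1+, c-kit+, CD150+ and CD48- cells. Ltbr-/- cells (Ltbr KO, CD45.2+, with a homozygous deletion inside the lymphotoxin beta receptor gene) and congenic Ly5.1 cells (CD45.1+, with intact Ltbr) had been injected together in equal numbers into Ly5.1/Ly5.2 mice after lethal irradiation, and both genotypes were sorted from the same chimeras 6 weeks later. Each genotype has 3 biological replicates, which pool the sorted cells of 6 chimeras. Donors were 10 to 13 weeks old for Ltbr KO and 7 to 13 weeks for Ly5.1, so age and genotype were not fully separated, and the congenic Ptprc interval also differs between the groups. The question is how loss of the receptor changes expression in stem cells that share one recipient.

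Values are the deposited signal, which was taken from its values to be the power of 2 of a regularized log: size factors are already applied, values of weakly expressed genes are drawn towards their mean, and levels are not divided by gene length. The paper reports an average number of reads over the samples, but the depth of each sample is unknown because the signal holds no counts. Median log2 signal over the tested genes ran from 8.46 to 8.47 across the 6 samples. Ltbr itself had a signal of 23.1 to 26.4 in Ltbr KO and of 522 to 564 in Ly5.1, as labelled. Of the 12 LT/ST-HSC markers all were in the tested genes, and 3 were lower, among them Ly6a (-0.39, limma adjusted p = 0.0016), and 1 higher in Ltbr KO. 11 of the 12 lay below 0 and 1 above (median -0.16), and their summed signal was 20820 to 21220 against 22340 to 23130 in Ly5.1. Cd48, which the gate leaves out, was between 20.1 and 28.9 in every sample. Flt3, also a marker outside the gate, was between 705 and 927 and lower in Ltbr KO (-0.28, limma adjusted p = 0.0355), and Il7r was under 10. All 10 neutrophil and granule genes were lower in Ltbr KO (summed signal of 43940 to 44510 against 57570 to 62270 in Ly5.1). 2 of the 8 tested erythroid genes, Hba-a1 and Hba-a2, were higher (summed over the erythroid list, 4823 to 5184 against 3411 to 3756), as were Cma1 and Cpa3 of the mast cell list, in which Prss34 was lower (7803 to 8361 against 4336 to 4967). Of the B cell genes Igkc and Ighm were lower and Cd79a was higher. Of the 7 tested monocyte genes 2 were higher and 2 lower, and of the 5 tested megakaryocyte genes 1 and 1. The T cell list summed to 42.5 to 45.6 in all samples. The part of these cell type differences in the MRP results was not tested, and in pooled sorted cells a shift in the makeup of the gate and a change per cell cannot be told apart.

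The MRP genes were mildly higher in Ltbr KO as a group, although with centring on the cytosolic ribosomal protein genes, a scaling that places 97.9% of all tested genes lower, the 70 members above 0 turned lower too. 24 of the 76 (31.6%) were higher at an adjusted p under 0.05 (limma, Benjamini-Hochberg over all tested genes), where 10.6% of all tested genes were. None was lower at that threshold by limma, beside 4.18% of all tested genes. With the study's second threshold, a fold of at least 1.5, no member was called in either direction, against 2.78% of all tested genes. The folds of the 24 higher members ran from 1.20 to 1.49. The median log2 fold change was 0.20 over the 76 members and -0.01 over all tested genes, and 70 members lay above 0 and 6 below.

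The values of the 3 Ltbr KO samples lay above all 3 Ly5.1 samples in 37 members, against 17.0% of all tested genes, and below them in 1 member, Mrpl37, against 13.5% of all tested genes. Sample by sample, the median deviation of the members from their own mean over the 6 samples was 0.09, 0.09 and 0.13 on the log2 scale in Ltbr KO replicates 1, 2 and 3. In Ly5.1 replicates 1, 2 and 3 it was -0.09, -0.12 and -0.06. The 2 groups did not overlap, and the shift was small beside that of the cytosolic ribosomal protein genes in the same samples (0.35 to 0.45 in Ltbr KO and -0.48 to -0.28 in Ly5.1).

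The count of higher members depended on single libraries and on the fit. It was 15 without Ltbr KO replicate 2 (19.7%, against 8.59% of all genes) and 14 without Ltbr KO replicate 3 (18.4%, against 7.66%). 8 members (Mrpl11, Mrpl14, Mrpl30, Mrpl38, Mrpl43, Mrpl52, Mrps16 and Mrps24) were called whichever sample was left out. The share of all tested genes called in every such fit was not counted. The count of higher members was 11 (14.5%, against 9.25% of all genes tested), with Mrpl37 called lower, after a correction for transcript length and GC content. It was 5 (6.58%) without a filter on low genes (2.23% of all genes) or without moderation of the variance (3.66%). With centring on the cytosolic ribosomal protein genes it was 0, with 76 lower. That centring set the median of all tested genes to -0.89 and left the members 0.21 above it.

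**Figure D1:**
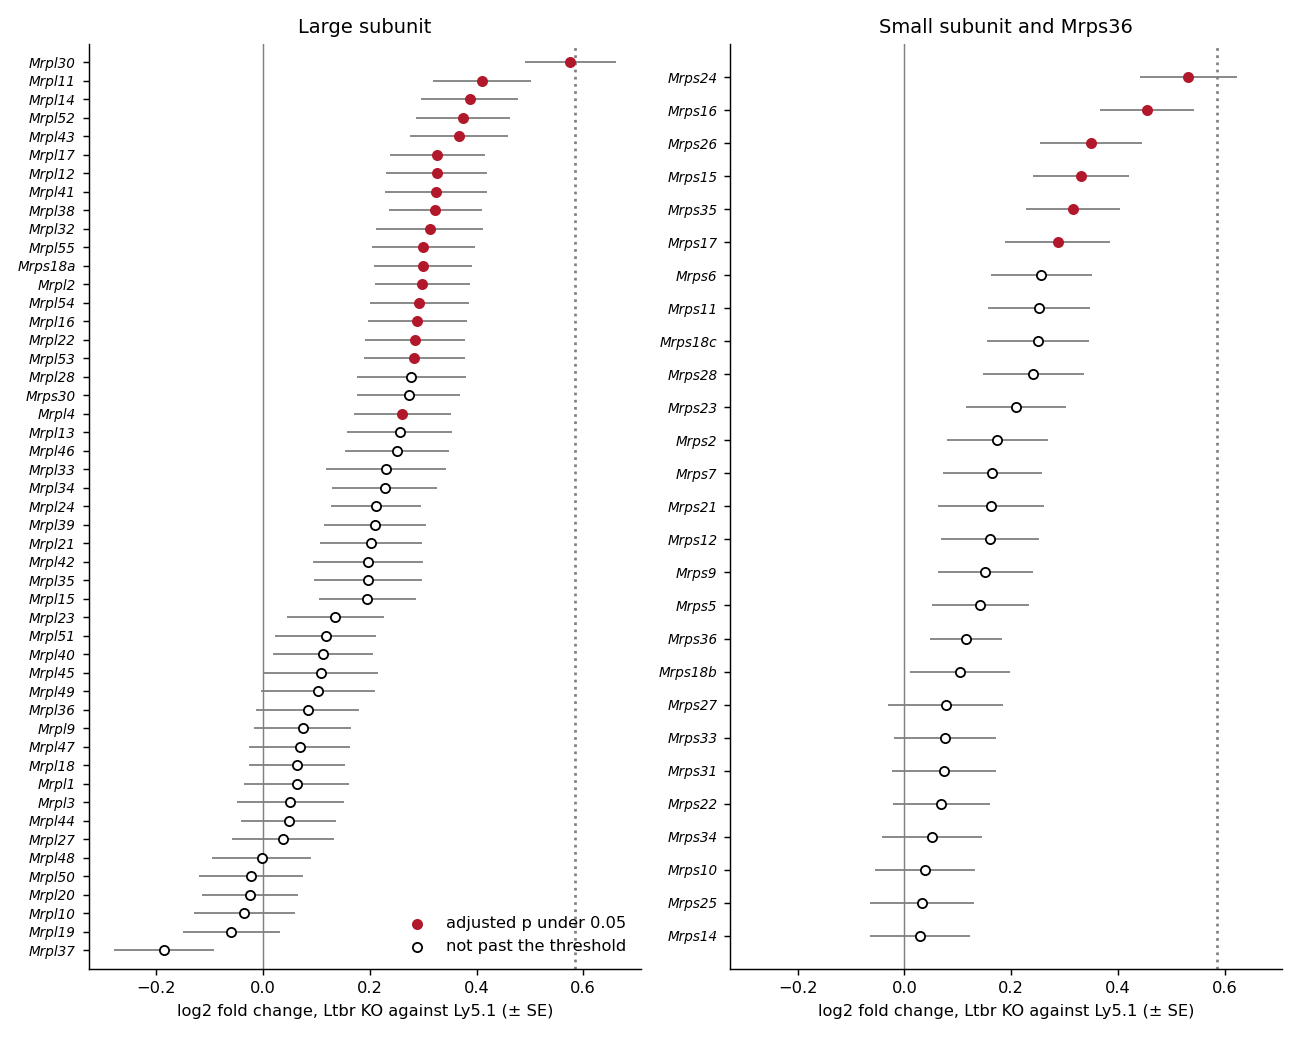
Log2 fold change of each MRP gene, Ltbr KO against Ly5.1, with its SE from limma (horizontal axis), ordered within the large subunit (left) and the small subunit with Mrps36 (right). Filled points passed an adjusted p of 0.05 and the dotted line marks a fold of 1.5, which no member reached; 70 of 76 points lie to the right of 0, while with centring on the cytosolic ribosomal protein genes all 76 would lie to its left.

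Mrpl30, a large subunit protein with a bacterial counterpart (chr1 in GRCm38), had the largest difference. Its signal was 1694, 1660 and 1911 in Ltbr KO replicates 1, 2 and 3 and 1167, 1180 and 1178 in Ly5.1. The groups were far apart and the Ly5.1 samples were almost alike, with means of 1755 ± 136 (SD, n = 3) and 1175 ± 6.76 (SD, n = 3). The log2 fold change was 0.58 (SE 0.09, limma adjusted p = 2.19e-06), a fold of 1.49 that fell just short of 1.5. Without single samples it ran from 0.51 to 0.61, and after the length and GC correction it was 0.53.

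Mrps24, a small subunit protein at the mRNA entry, followed with 805, 782 and 869 in Ltbr KO and 600.0, 543 and 556 in Ly5.1. All Ltbr KO samples were higher, by a log2 fold change of 0.53 (SE 0.09, limma adjusted p = 2.90e-05). 10.1% of its transcript windows of 76 bases also occur in Urgcp, whose own log2 fold change was -0.04 (limma adjusted p = 0.84). Mrps16, a small subunit protein kept from bacteria, had 1006, 1023 and 1040 in Ltbr KO and 720, 733 and 787 in Ly5.1, a log2 fold change of 0.45 (SE 0.09, limma adjusted p = 0.000184). It was as large after the length and GC correction (0.45).

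Among the other large subunit genes, Mrpl14 had 787, 779 and 805 in Ltbr KO and 585, 571 and 659 in Ly5.1, a log2 fold change of 0.39 (SE 0.09, limma adjusted p = 0.00213). Mrpl52, which has no bacterial counterpart, had 1309, 1290 and 1405 against 1021, 965 and 1105, a log2 fold change of 0.37 (SE 0.09, limma adjusted p = 0.00199). In both genes the groups were apart in every sample. After the length and GC correction their log2 fold changes were 0.21 and 0.18, and neither was called (limma adjusted p = 0.0989 and 0.152). In the exact two-sided permutation test of 3 against 3 samples each of the 6 genes with the largest differences had p = 0.1, the smallest the design allows.

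At the other end, Mrpl37, a large subunit protein without a bacterial counterpart, had 879, 876 and 719 in Ltbr KO and 994, 924 and 888 in Ly5.1. It was the 1 member whose Ltbr KO samples all lay below Ly5.1, but its log2 fold change of -0.19 (SE 0.09) did not pass (limma adjusted p = 0.19). After the length and GC correction it was -0.27 and passed (limma adjusted p = 0.0401). Mrpl19, Mrpl10, Mrpl20, Mrpl50 and Mrpl48 had log2 fold changes of -0.06, -0.03, -0.02, -0.02 and -0.003, all with overlapping groups. The 3 Ltbr KO values of Mrpl20 were 646 each, while Ly5.1 had 694, 664 and 617.

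**Figure D2:**
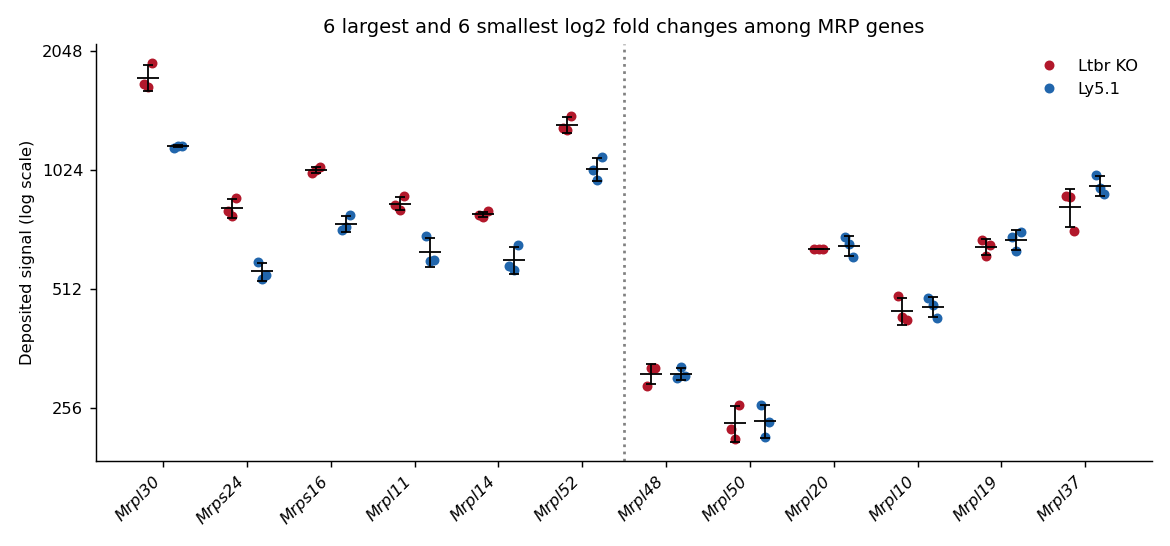
Deposited signal (vertical axis, log scale) of the 6 MRP genes with the largest and the 6 with the smallest log2 fold change in the 3 Ltbr KO (red) and 3 Ly5.1 (blue) samples; black bars give the mean and SD. The groups are apart in all 6 genes on the left and overlap in 5 of the 6 on the right, Mrpl37 being the exception; with centring on the cytosolic ribosomal protein genes all 12 genes would be lower in Ltbr KO.

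The promoters of the members are shown for the gene with the largest difference (Mrpl30), for the gene of largest difference that holds each of 3 motifs (Mrpl52, Mrpl17 and Mrps24), and for Mrpl37, the lowest. Each runs from 250 bases before to 50 bases after the start site in RefSeq, GRCm38.p6: Mrpl30 is chr1:37890227-37890526, plus strand, Mrpl52 is chr14:54426659-54426958, plus strand, Mrpl17 is chr7:105811038-105811337, minus strand, Mrps24 is chr11:5707652-5707951, minus strand and Mrpl37 is chr4:107066817-107067116, minus strand. Capitals mark a match, on either strand, to CCGGAAGT (ETS family, bound by GABP), GCATGCGC (a half-site of NRF1) or AAGATGGC (YY1).
Mrpl30: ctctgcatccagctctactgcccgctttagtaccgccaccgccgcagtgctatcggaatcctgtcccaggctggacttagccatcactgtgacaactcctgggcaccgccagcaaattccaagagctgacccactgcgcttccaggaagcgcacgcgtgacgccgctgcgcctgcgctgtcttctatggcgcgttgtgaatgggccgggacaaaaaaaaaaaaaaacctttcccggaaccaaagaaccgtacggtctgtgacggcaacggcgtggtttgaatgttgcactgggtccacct
Mrpl52: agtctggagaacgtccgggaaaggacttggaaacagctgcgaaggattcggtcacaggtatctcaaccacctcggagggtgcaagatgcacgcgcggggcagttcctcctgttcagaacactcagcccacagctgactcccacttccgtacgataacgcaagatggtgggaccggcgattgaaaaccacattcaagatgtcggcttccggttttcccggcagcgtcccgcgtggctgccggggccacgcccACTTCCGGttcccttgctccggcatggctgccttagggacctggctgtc
Mrpl17: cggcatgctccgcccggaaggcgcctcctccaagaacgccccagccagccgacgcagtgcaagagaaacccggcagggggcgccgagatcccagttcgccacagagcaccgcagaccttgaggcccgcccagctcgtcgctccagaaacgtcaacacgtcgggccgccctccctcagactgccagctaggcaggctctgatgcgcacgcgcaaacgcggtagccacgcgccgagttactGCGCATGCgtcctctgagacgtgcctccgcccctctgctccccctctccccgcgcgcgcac
Mrps24: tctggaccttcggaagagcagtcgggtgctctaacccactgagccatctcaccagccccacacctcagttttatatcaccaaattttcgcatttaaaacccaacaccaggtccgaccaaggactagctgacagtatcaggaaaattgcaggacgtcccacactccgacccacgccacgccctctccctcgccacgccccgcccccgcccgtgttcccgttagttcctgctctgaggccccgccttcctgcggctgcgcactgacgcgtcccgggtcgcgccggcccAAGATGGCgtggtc
Mrpl37: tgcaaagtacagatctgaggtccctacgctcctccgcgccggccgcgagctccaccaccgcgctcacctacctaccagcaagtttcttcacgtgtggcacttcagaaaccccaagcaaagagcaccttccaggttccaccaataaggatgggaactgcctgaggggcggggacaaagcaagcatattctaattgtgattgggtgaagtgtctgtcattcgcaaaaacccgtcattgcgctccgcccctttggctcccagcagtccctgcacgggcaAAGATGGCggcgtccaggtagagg

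67 of the 76 members had a promoter in this table, and 29 of them held at least 1 of the 3 motifs. CCGGAAGT was in 12 of 67 (17.9%), against 4.31% of all 27025 genes with a promoter and 9.25% of the tested ones. GCATGCGC was in 8 (11.9%), against 3.05% and 6.01%, and where the palindrome is whole its matches on the 2 strands overlap. AAGATGGC was in 12 (17.9%), against 3.19% and 5.27%, and in 8 of those 12 it lay after the start site, as in Mrps24 and Mrpl37 above. The letters of AAGATGGC include a start codon. In the 61 cytosolic ribosomal protein genes with a promoter, CCGGAAGT was in 19.7%, GCATGCGC in 4.92% and AAGATGGC in 9.84%. CCGGAAGT was thus about as frequent there as in the members.

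CCGGAAGT, GCATGCGC and AAGATGGC were each in 3 of the 20 higher members with a promoter, and in 9, 5 and 9 of the 47 others. The share was lower in the higher members for CCGGAAGT and AAGATGGC and higher for GCATGCGC, all on few genes and without a test. Mrpl30, with the largest difference, held none of the 3 in this window, and Mrpl37, at the other end, held AAGATGGC. The more general GC box GGGCGG was in 49.3% of the member promoters and 67.0% of those of tested genes, and the TATA box TATAAA in 7.46% and 8.63%. These matches are descriptions of letters and no evidence of binding.

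The 2 subunits did not differ clearly. 18 of 49 large subunit genes (36.7%) and 6 of 26 small subunit genes (23.1%) were higher, against 10.6% of all tested genes. Their medians were 0.21 and 0.16 on the log2 scale. The 6 members below 0 were all in the large subunit, and the small subunit ran from 0.03 to 0.53. The difference of the medians was 0.05, and it was -0.002 without Ltbr KO replicate 3, -0.01 without Ly5.1 replicate 1 and 0.11 without Ly5.1 replicate 3. Members kept from bacteria (15 of 46 higher, median 0.22) and members found only in mitochondria (9 of 29 higher, median 0.12) were called at like shares.

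The L7/L12 stalk is the flexible arm of the large subunit that recruits translation factors. Its protein Mrpl12, which has also been described at the mitochondrial RNA polymerase, had 1089, 1095 and 1134 in Ltbr KO and 864, 778 and 1023 in Ly5.1, a log2 fold change of 0.33 (SE 0.09, limma adjusted p = 0.0146). Mrpl11, at the base of the stalk, had 834, 813 and 878 against 695, 603 and 605, a log2 fold change of 0.41 (SE 0.09, limma adjusted p = 0.00118). Mrpl10, which anchors Mrpl12 to the base, had 490, 435 and 426 against 485, 466 and 431, with a log2 fold change of -0.03 (SE 0.09, limma adjusted p = 0.86). The groups were apart for Mrpl12 and Mrpl11 and overlapped for Mrpl10, and the difference between these genes was not tested. Mrpl12 was no longer called after the length and GC correction (0.22, limma adjusted p = 0.087), without Ltbr KO replicate 3 (0.31, limma adjusted p = 0.0704) or without Ly5.1 replicate 2 (0.23, limma adjusted p = 0.128). Mrpl1, of the separate L1 stalk, had a log2 fold change of 0.06 with overlapping groups (limma adjusted p = 0.73).

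Around the peptidyl transferase centre, where the peptide bond is made, 3 of 5 genes (60.0%) were higher. The shares were 31.6% of all members and 10.6% of all tested genes, and 5 genes are too few to set this region apart. Mrpl2 had 1278, 1310 and 1411 in Ltbr KO and 1137, 975 and 1147 in Ly5.1, a log2 fold change of 0.30 (limma adjusted p = 0.0182). Mrpl16 and Mrpl4 were also higher, with 0.29 and 0.26, while Mrpl3 (0.05) and Mrpl27 (0.04) overlapped between the groups. None of the 3 was called after the length and GC correction, with Mrpl2 at 0.16, Mrpl16 at 0.18 and Mrpl4 at 0.16 (limma adjusted p = 0.207, 0.18 and 0.255). Mrpl2 was not called without Ltbr KO replicate 3 or Ly5.1 replicate 2, and Mrpl16 and Mrpl4 each in 4 of the 6 fits that left out a sample.

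The exit tunnel carries the nascent chain towards the inner membrane. 2 of its 7 genes (28.6%) were higher, near the 31.6% of all members and beside 10.6% of all tested genes. They were Mrpl17 with a log2 fold change of 0.33 (840, 935 and 914 against 749, 681 and 713, limma adjusted p = 0.00967) and Mrpl22 with 0.29 (291, 300.4 and 314 against 253, 228 and 263, limma adjusted p = 0.0342). Mrpl22 was not called after the length and GC correction (0.13, limma adjusted p = 0.398) or in 5 of the 6 fits that left out a sample, and Mrpl17 was not called in the 1 without Ltbr KO replicate 2. Mrpl24 had the highest mean signal of all members, 2423, 2315 and 2324 against 1807, 2243 and 2074. Its groups did not overlap, but its log2 fold change of 0.21 did not pass (limma adjusted p = 0.0895). Mrpl23 (0.14), Mrpl45 (0.11), which anchors the ribosome to the inner membrane, Mrpl47 (0.07) and Mrpl44 (0.05) did not pass either and overlapped between the groups.

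In the small subunit, Mrps12 of the decoding centre had 530, 562 and 512 in Ltbr KO and 477, 457 and 502 in Ly5.1, and its log2 fold change of 0.16 did not pass (limma adjusted p = 0.26). Mrps26, Mrps15, Mrps35 and Mrps17 were higher, with 0.35, 0.33, 0.32 and 0.29. Mrps15 was not called after the length and GC correction (0.19, limma adjusted p = 0.155), and these 4 were not called in 2, 2, 2 and 4 of the 6 fits that left out a sample. Mrps36, outside the ribosome, had the lowest mean signal of the members, 65.1, 70.04 and 70.7 against 62.9, 62.4 and 64.6, with a log2 fold change of 0.12 (limma adjusted p = 0.27). Mrps10 and Mrpl27 had the next lowest means, and their log2 fold changes were both 0.04.

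By mean signal, 14 of the top 26 members were called, 6 of the middle 25 and 4 of the lowest 25, with medians of 0.28, 0.16 and 0.12. The share of all tested genes called in these signal classes was not counted. Most members have a high signal, with 60 of the 76 in the upper 25% of symbols by mean. A fit on that 25% alone called 27 of the 60 higher, against 17.9% of all genes in it. The 10.6% over all tested genes is thus not matched to the members for signal. Across the 76 members the log2 fold change went with the mean log2 signal at Pearson's r = 0.32 and Spearman's rho = 0.33, a description over genes that share the same libraries. The regularized log draws low values together, and its part in this order was not tested.

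The members are short genes. The longest annotated transcript had a median of 1302 bases over the 76 members (463 to 7300) and of 2982 bases over 12716 tested genes with a transcript. Across those genes log2 fold change fell with log2 length (Pearson's r = -0.37, Spearman's rho = -0.41), and across the 76 members less so (r = -0.15, rho = -0.19). Of all tested genes up to 1302 bases, 31.8% were higher in Ltbr KO (median 0.11), and of the 38 members in that class 13 (34.2%, median 0.25), so the share of called members among short genes was near that of short genes at large. Of the longer tested genes 7.25% were higher (median -0.03), and of the 38 longer members 11 (28.9%, median 0.16). The cut at the members' median length was chosen after the values were seen, and the longest annotated transcript need not be the one expressed.

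**Figure D3:**
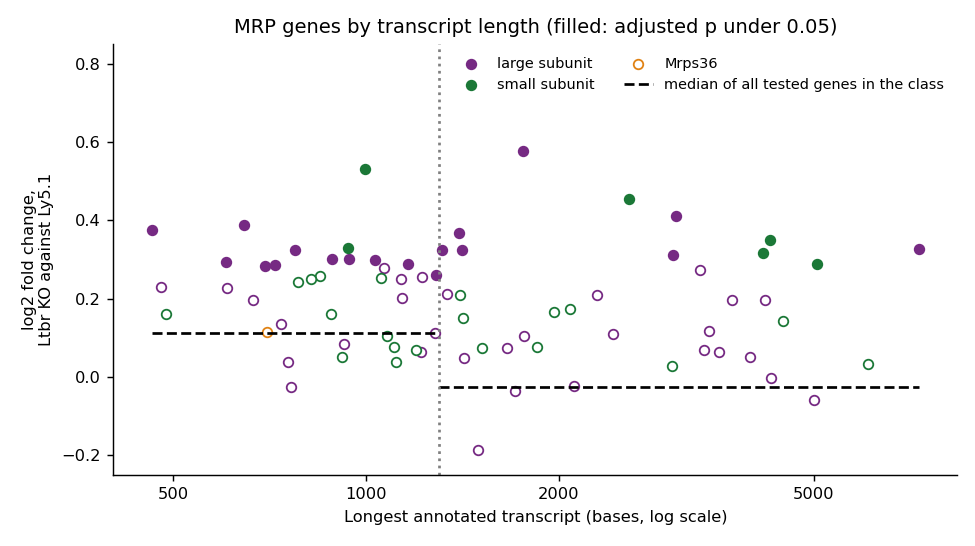
Log2 fold change of the 76 MRP genes, Ltbr KO against Ly5.1 (vertical axis), against the length of the longest annotated transcript in bases (log scale), with filled points for an adjusted p under 0.05 and the dotted line at the members' median of 1302 bases. Dashed lines give the median of all tested genes in each class, 0.11 on the left and -0.03 on the right; filled points occur on both sides, and with centring on the cytosolic ribosomal protein genes every point would lie below 0.

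Beside the MRP genes, the other parts of the mitochondrial translation system were mixed. The 7 mitoribosome proteins with other symbols all lay above 0 (median 0.17) with none called by limma. Of these, Ict1, a release factor built into the large subunit, and Chchd1 and Aurkaip1 of the small subunit had log2 fold changes of 0.28, 0.25 and 0.25, and Mrp63 had 0.17 (limma adjusted p = 0.0884, 0.0793, 0.0678 and 0.268). 1 of these 7 genes had all Ltbr KO samples above Ly5.1, as 17.0% of all tested genes had. None had an adjusted p under 0.05, where 10.6% of all tested genes were called higher.

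Of 18 translation factors 4 (22.2%) were higher and none lower by limma, against 10.6% and 4.18% of all tested genes, with a median of 0.01. Slirp, which stabilises mitochondrial mRNAs together with Lrpprc, had 798, 780 and 820 in Ltbr KO and 661, 528 and 536 in Ly5.1, a log2 fold change of 0.48 (SE 0.10, limma adjusted p = 0.000249). Tsfm, the exchange factor of the elongation factor Tufm, Mtif3, an initiation factor, and Oxa1l, which inserts the new chains into the inner membrane, were higher by 0.35, 0.32 and 0.31. In all 4 the groups did not overlap, and Mtif2, Gfm2 and Mtfmt had all Ltbr KO samples below Ly5.1 without passing (-0.13, -0.19 and -0.18). Of all tested genes, 17.0% had groups apart with Ltbr KO higher and 13.5% with Ltbr KO lower, so these counts do not set the factors apart. With centring on the cytosolic ribosomal protein genes the median of the factors was -0.88, beside -0.89 over all tested genes.

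Of 25 assembly factors 4 were higher and none lower, with a median of 0.01. C1qbp, a matrix protein with an assigned role in mitoribosome biogenesis, had 3723, 4091 and 3805 in Ltbr KO and 2529, 2959 and 3018 in Ly5.1, a log2 fold change of 0.45 (SE 0.08, limma adjusted p = 4.98e-05). Mpv17l2, Malsu1 (listed as 2410003K15Rik) and the helicase Ddx28, all of which act on the large subunit, were higher by 0.39, 0.37 and 0.34. Of 19 mitochondrial aminoacyl-tRNA synthetases and amidotransferase subunits, which charge the tRNAs, none was called by limma in either direction, against the same 10.6% and 4.18%. Their median was 0.01, and the largest difference was 0.21 in Qrsl1.

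The 13 protein-coding genes of the mitochondrial genome, which the mitochondrial ribosome translates, were lower more often than higher. 2 of the 13 (15.4%) were higher, where 10.6% of all tested genes were. 6 of the 13 were lower, where 4.18% of all tested genes were. Among the 6, ND4L had 1380, 1315 and 1396 in Ltbr KO and 1703, 1995 and 1693 in Ly5.1, a log2 fold change of -0.39 (SE 0.09, limma adjusted p = 0.000958). CYTB, ND4 and ND5 were lower by log2 fold changes of -0.32, -0.30 and -0.27. ATP6 (0.21) and COX3 (0.18) were higher, while ATP8 was lower (-0.25, limma adjusted p = 0.0425). The groups overlapped for COX3 and ATP8. After quantile normalization all 13 lay below 0. The median was -0.17. Of the 80 tested nuclear genes of the respiratory chain and ATP synthase, 57 were higher and none lower by limma (median 0.39, 13 past both thresholds), but with centring on the cytosolic ribosomal protein genes 78 of those 80 lay below 0, with a median of -0.50 beside -0.89 over all tested genes. Cox8a, Ndufa6, Cox4i1 and Cox5a led them with log2 fold changes of 1.02, 0.92, 0.87 and 0.78.

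The cytosolic ribosomal protein genes were shifted the most of these lists, with 78 of 81 higher, 1 lower (Rpl21, -0.24), 73 past the fold threshold and a median of 0.79. Rpl13, Rpl27a, Rpl27 and Rpl36 had log2 fold changes of 1.02, 1.01, 0.99 and 0.99. Their median was 0.55 after quantile normalization and -0.10 when they were centred on themselves. No MRP gene reached the fold of 1.5 that 73 of the 81 passed. Of 17 regulators of mitochondrial transcription, replication and biogenesis, Myc was higher (0.22, limma adjusted p = 0.0443) and Gabpa, which encodes the DNA-binding part of GABP, was lower (-0.26, limma adjusted p = 0.0478). Peo1 (-0.23) and Gabpb1 (0.22) did not pass.

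**Figure D4:**
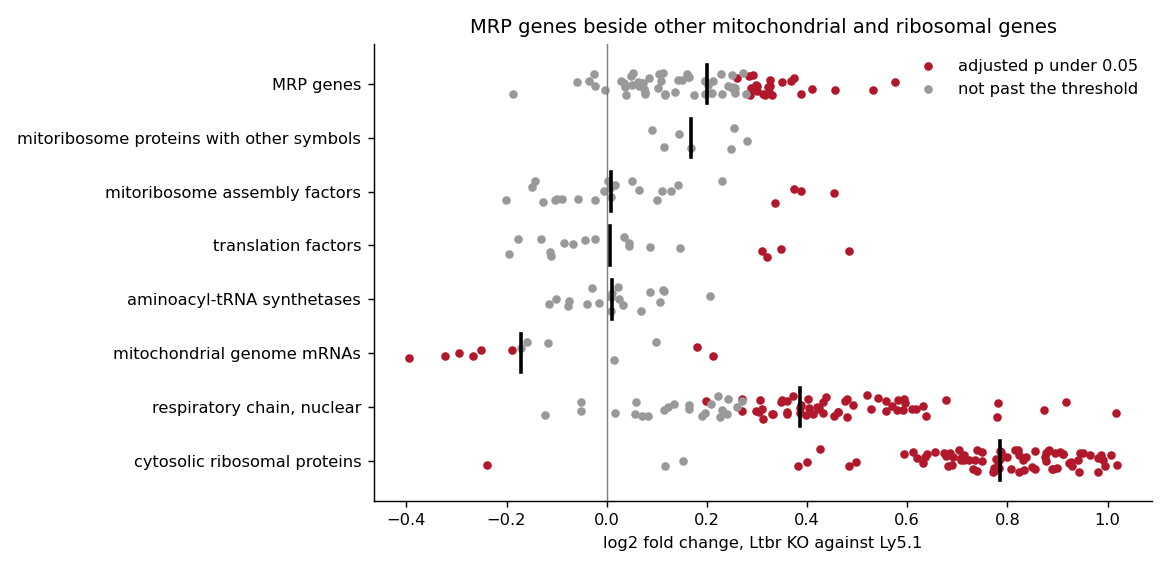
Log2 fold change of every tested gene, Ltbr KO against Ly5.1 (horizontal axis), in the MRP list and in 7 other lists (rows), with red points for an adjusted p under 0.05 and black bars for medians. The median of the MRP genes (0.20) lies between those of the translation and assembly factors (0.01) and of the nuclear respiratory chain genes (0.39); with centring on the cytosolic ribosomal protein genes the medians of all 8 lists are below 0.

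The members were spread over 17 chromosomes, none on the X. 18 of the 76 (23.7%) were counted with a protein-coding neighbour on the opposite strand whose start lay within 1000 bases, against 11.4% of the tested coding genes. The count leaves out at least Mrps11 (plus strand, from chr7:78783119) and Mrpl46 (minus strand, to chr7:78783531), members that overlap at their starts. Both had a log2 fold change of 0.25, and neither was called (limma adjusted p = 0.0732 and 0.08). Of the neighbours of the 18, 17 were tested and 3 of them (17.6%) were higher, against 10.6% of all tested genes, with a median of -0.004. Mrpl30 and its neighbour Mitd1 start 66 bases apart, and their log2 fold changes were 0.58 and 0.04. Mrpl49 and Fau, which encodes a cytosolic ribosomal protein fused to a ubiquitin-like one, start 59 bases apart and had 0.10 and 1.07. Mrpl36 and Ndufs6, of complex I, overlap at their starts and had 0.08 and 0.45. Only Mrpl54 and Apba3 were both called, each with 0.29; the difference between partners was not tested.

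**Figure D5:**
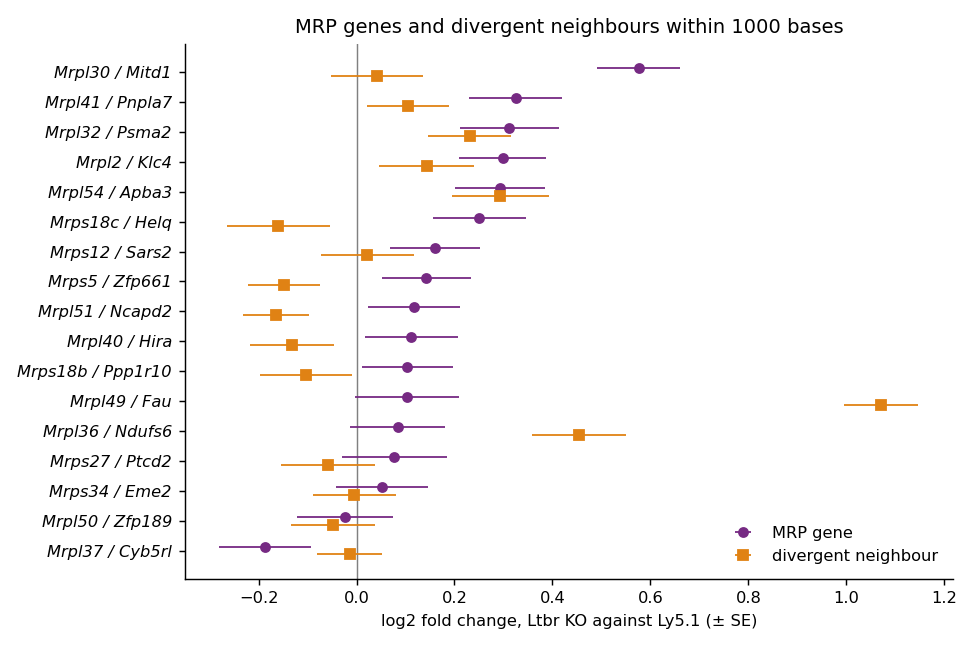
Log2 fold change with SE (horizontal axis) of 17 MRP genes with a tested divergent neighbour (circles) and of that neighbour (squares), Ltbr KO against Ly5.1. The pair of Mrps11 and Mrpl46 is not shown. Mrpl30 is far to the right of Mitd1 and Mrpl49 far to the left of Fau; only Mrpl54 and Apba3 were both called, and with centring on the cytosolic ribosomal protein genes all 17 MRP genes would be below 0.

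One member lies near a locus at which the groups differ by construction. Mrpl51 (chr6:125191801-125196269) ends 110302 bases before Ltbr (chr6:125306571-125313885, GENCODE on GRCm38). It had 438, 506 and 438 in Ltbr KO and 405, 437 and 431 in Ly5.1, so the groups were narrowly apart, and its log2 fold change of 0.12 did not pass (limma adjusted p = 0.46). No member lies within 10 Mb of Ptprc.

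Some members share sequence with other genes, so that the authors' mapping could have split their reads. 10 of 76 shared 10% or more of their windows with another gene, led by Mrpl53 (78.7%), and Mrps34 shared 32.4% with Nme3. Mrpl53 was called higher by 0.28, and this call is uncertain. Without those 10 genes, 21 of 66 members were higher and the median was 0.21.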

How the data were processed

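RNA was prepared as stranded mRNA libraries and sequenced as single reads of 76 bases. Reads were assembled in SeqMan NGen and expression was quantified in ArrayStar by the authors, who deposited 1 signal per gene and sample. The methods name regularized log values, and that the signal is their power of 2 was read from the values. The submitters' notes name DESeq2 and GRCm38/mm10. No counts were used here, so the depth of each sample is unknown and precision rests on 3 replicates per group.

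Groups came from the sample labels. For repeated symbols the row of highest mean was taken. Log2 of the signal was fitted in limma 3.58.1 (R 4.3.3; lmFit, then eBayes with an intensity trend) on the upper 50% of symbols. Thresholds were a Benjamini-Hochberg adjusted p of 0.05 and, as the second criterion, 1.5-fold. Exact permutation tests used scipy 1.17.1. The model was tested on simulated data. The length and GC correction was a loess of the first degree with span 0.3. Shared windows, lengths and positions came from GENCODE M21, promoters from RefSeq.

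The members and lists were chosen with earlier results of these data known. Named members were the 6 largest and 6 smallest log2 fold changes, the 3 highest and 3 lowest means, the stalk, exit tunnel and decoding centre genes and those within 10 Mb of Ltbr or Ptprc; of other lists, up to 4 with the largest difference. Others, and the divergent neighbours, were named after their values were seen. Alternatives were a replicate block, other filters, scalings, variance models and thresholds, added constants of 1 or 16, the mean of repeated entries, the length and GC correction and leaving out each sample. P-values measure the spread between pooled replicates.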

Additional observations from a re-analysis of the deposited data

How the results depend on the processing

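With the replicate number as a block, 24 members were higher, 0 lower and 0 past both thresholds. Deviations of same-numbered samples correlated at 0.03, -0.005 and 0.09. The last was the largest for any pair of an Ltbr KO and a Ly5.1 sample, while Ltbr KO replicate 1 correlated best with Ly5.1 replicate 2. With 3 samples per group, values this near 0 cannot show whether the numbers pair samples from the same chimeras. The stricter filter and other settings of the pseudocount, repeated entries, quantile or median scaling and the variance trend kept the direction of the median and a count of higher members within 1.5 times of 24.

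Without a filter and without variance moderation 5 members each were higher. After the length and GC correction 11 were higher, 1 lower and 25 (32.9%) did not overlap, with a median of 0.115, where 9.25%, 5.29% and 30.1% of all tested genes were higher, lower and not overlapping. Centring on the cytosolic ribosomal protein genes gave a median of -0.682, 0 higher, 76 lower, 58 past both thresholds and 76 not overlapping, with 97.9% of all tested genes lower. A fold threshold lower than 1.5 gave 13 calls and one of 2 gave 0. The share of all tested genes called at these folds was not counted, so the counts do not set the members apart from other genes. Leaving out each sample gave 14 to 26 higher, 0 lower in each, 0 to 1 past both thresholds, medians of 0.163 to 0.22 and subunit differences of -0.0145 to 0.108. Groups did not overlap in 42 to 50 members then (55.3% to 65.8%), and in 38.4% to 42.9% of all tested genes.

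Cytosolic centring turned the sign of 70 of the 76 members, the length and GC correction of 14, and leaving out single samples of 14 at least once. Among the 26 members of the naming rule these were, under cytosolic centring, Mrpl30 -0.305, Mrps24 -0.349, Mrps16 -0.426, Mrpl11 -0.47, Mrpl14 -0.493, Mrpl52 -0.506, Mrpl24 -0.67, Mrpl2 -0.582, Mrpl27 -0.843, Mrps10 -0.842, Mrps36 -0.765, Mrpl12 -0.556, Mrpl22 -0.596, Mrpl23 -0.745, Mrpl17 -0.554, Mrpl47 -0.812, Mrpl44 -0.833, Mrpl45 -0.772, Mrps12 -0.72 and Mrpl51 -0.764. After the length and GC correction they were Mrpl48 0.0543, Mrpl19 0.0108, Mrpl27 -0.122, Mrps10 -0.08, Mrps36 -0.0396, Mrpl23 -0.0257 and Mrpl44 -0.0412. Without single samples their ranges that crossed 0 were Mrpl48 -0.0291 to 0.0479, Mrpl50 -0.105 to 0.048, Mrpl27 -0.0742 to 0.0997, Mrpl10 -0.097 to 0.00372, Mrps10 -0.0565 to 0.0913, Mrpl20 -0.0711 to 0.0143 and Mrpl45 -0.0406 to 0.2. The cause was not tested.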
